A study of Homo sapiens with 4 samples.

Results

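The genes described are 32 members of the cell death machinery: BCL2 family genes, caspases and their activators, inhibitors of apoptosis, and death receptors with their adaptors. They were listed by symbol for their known roles, and each symbol matched 1 row among the 58302 Ensembl genes listed. Of the 32, 23 promote apoptosis and 9 oppose it. They were measured in 4 RNA-seq libraries of T24, a long-established line of human bladder carcinoma cells: 2 IGF2BP3 knockout libraries (CRISPR/Cas9 editing, described as a stable line) and 2 control libraries of T24 with no edit named. No drug, dose or time point is given for either group. IGF2BP3 encodes a protein that binds messenger RNAs, and the comparison asks how the RNA of the death machinery stands when it is lost. Whether replicate libraries are separate cultures or clones is not stated, so p-values measure only the spread between these libraries, which may be technical.

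Apoptosis runs along 2 converging routes. In the intrinsic route, BH3-only proteins sense damage and either engage the effectors BAX and BAK1 or occupy the guardians BCL2, BCL2L1 (BCL-XL), MCL1, BCL2A1 and BCL2L2, and an opened outer mitochondrial membrane lets APAF1 assemble a platform that activates caspase 9. In the extrinsic route, death receptors recruit FADD and activate caspases 8 and 10, while CFLAR (c-FLIP) competes for the same platform. Inhibitor of apoptosis proteins hold back caspases and shape signalling at the receptors, and DIABLO and HTRA2 relieve that block. MCL1 in particular is a protein and a transcript of short life in many cells.

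The libraries were shallow, with 811823 and 1240207 gene-assigned reads behind the values of knockout 1 and 2, against 2162179 and 1870884 behind those of control 1 and 2. IGF2BP3 itself had 0 and 1 reads in the knockouts against 27 and 171 in the controls. Of 6 epithelial markers, 3 were above 0. Both knockouts stood above both controls for all 3, as they did for 12.1% of the 11463 genes tested below. KRT8 had FPKM of 1138 and 816 in the knockouts, against 266 and 397 in the controls. KRT18 had 303 and 314 in the knockouts, against 173 in each control, and KRT7 had 56.9 and 33.1, against 0 and 4.27. The part of these marker differences in the values below was not tested. The other 3, KRT19, EPCAM and CDH1, were listed at 0 throughout. Of 7 urothelial markers, UPK1A, UPK1B, UPK2 and UPK3A were listed at 0 throughout. UPK3B was at 6.80 FPKM in knockout 2 and GATA3 at 0.150 in control 1, each at 0 elsewhere. PPARG had 46.1 and 0 in the knockouts, against 0 and 6.85 in the controls. Above 0 in any library were 0 of 5 leukocyte, 0 of 4 erythroid, 1 of 3 endothelial (CDH5, in control 2) and 3 of 5 fibroblast markers. In the fit over 11463 genes, 10 passed an adjusted p of 0.05, which is 0.0872% of those tested. Of these, 7 (0.0611%) were higher in the knockout and 3 (0.0262%) were lower. KRT8 (adjusted p = 0.0896 in limma), KRT18 and KRT7 (adjusted p = 0.955 for each) were not among the 10. The edited gene IGF2BP3 was not among the 10: its log2 fold change was −3.89 ± 2.83 (SE; adjusted p = 0.955 in limma). A gene that is not called may therefore still differ between the groups.

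No apoptosis gene passed that threshold. Of the 32, 24 reached a mean of 1 FPKM (a level per kilobase of transcript, corrected for library depth) and were tested, 6 were listed at 0 in every library, and BCL2 and DIABLO were too low. Among the 24, limma called 0, with 2 at an unadjusted p under 0.05 (BBC3 and MCL1), against 3.91% of all tested genes. Fold changes split evenly, 12 on either side of 0, and their median on the log2 scale was 0.04, against −0.08 over all tested genes. Among the 17 pro-apoptotic genes tested, 9 were higher and 8 lower (median 0.09). Among the 7 anti-apoptotic genes tested, 3 were higher and 4 lower (median −0.25).

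**Figure D1:**
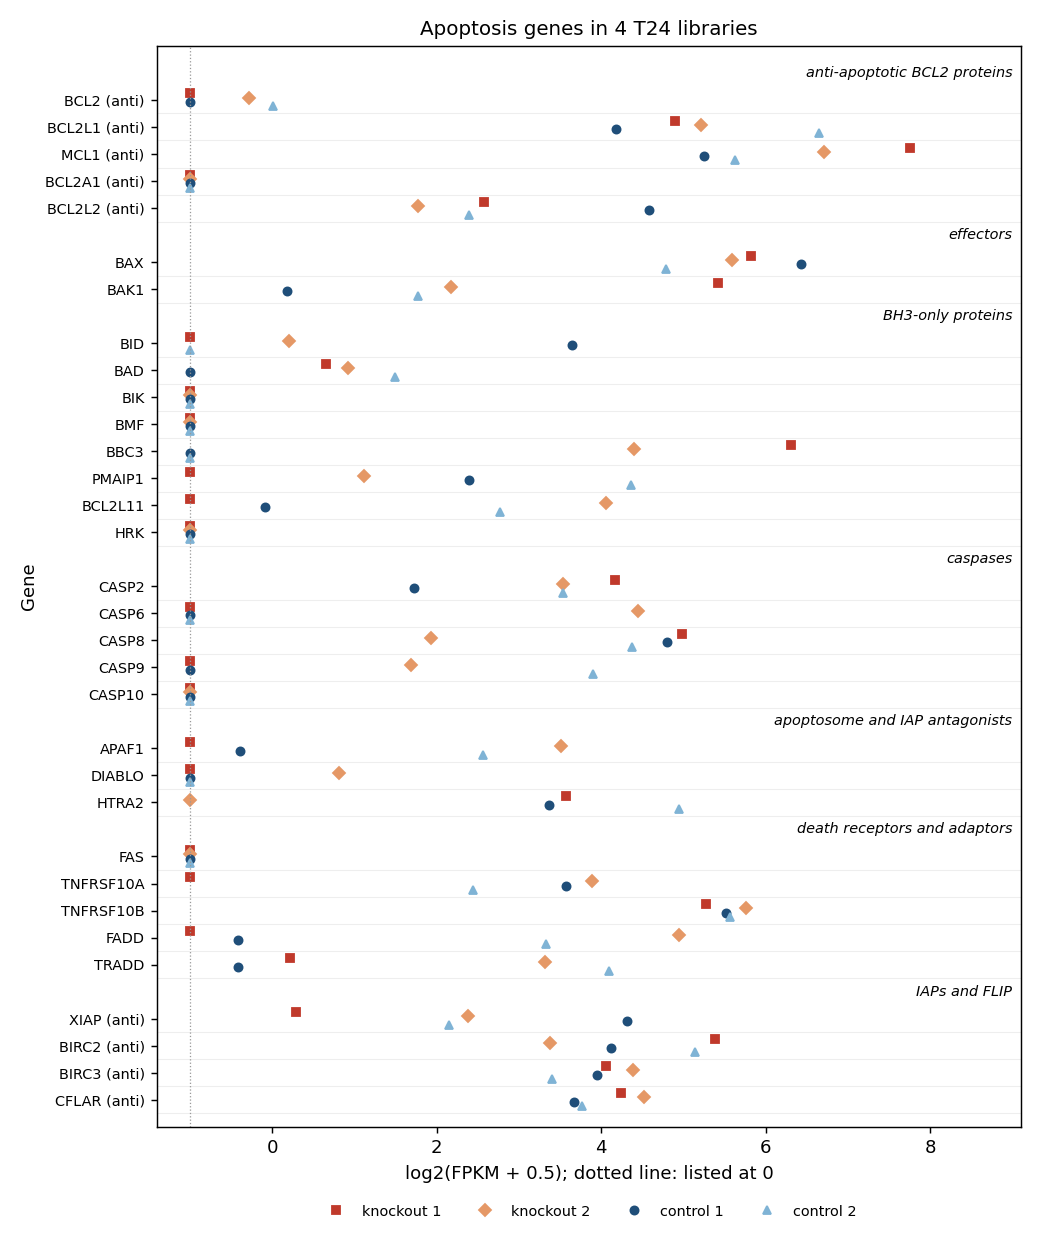
Level of each gene in each library, as log2(FPKM + 0.5), with knockout libraries as red and orange symbols and control libraries as blue ones. Genes are grouped by role, the 9 anti-apoptotic genes carry "(anti)", and symbols on the dotted line are listed at 0. MCL1 and BBC3 have both knockout symbols to the right of both control symbols, and PMAIP1 has them to the left.

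Both knockout libraries lay above both controls for 5 of the 24 tested genes (MCL1, BAK1, BBC3, BIRC3 and CFLAR) and below them for 1 (PMAIP1). Over all tested genes, 12.1% separated upwards and 14.4% downwards, so the total of 6, or 25%, stood close to the 26.5% of the whole table. Bulk libraries cannot tell a larger share of expressing cells from more RNA per cell, which holds for every value here.

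MCL1, the short-lived guardian that binds BAK1 and BIM-type proteins, was the most abundant of the 32 by mean level. Its FPKM was 215 and 104 in knockout 1 and 2, against 37.5 and 49.1 in control 1 and 2. The groups did not overlap, and each knockout stood above each control. As means, these were 159 ± 78.8 in the knockout and 43.3 ± 8.17 in the control (SD, n = 2 each). The log2 fold change was 1.79 ± 0.80 (SE; 95% interval 0.22 to 3.35), with an unadjusted p of 0.0251 and an adjusted p of 0.955 in limma. When limma took no trend of spread with level, the SE was 1.41 and the unadjusted p was 0.253. The log2 fold change lay between 1.26 and 2.31 with any 1 library left out. Behind these values were 687 and 506 reads in the knockouts and 319 and 361 in the controls, more reads from shallower libraries. Scaled for depth, the ratio of reads was 3.45 (exact 95% interval 3.14 to 3.79, counting error only). The gene (ENSG00000143384) occupies chr1:150574551-150579738 of hg38, minus strand.

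The other guardians did not follow MCL1. BCL2L1, which encodes BCL-XL, had FPKM of 29.3 and 36.5 in the knockouts, against 17.5 and 99.7 in the controls. Both knockouts fell between the controls, and the log2 fold change of −0.36 ± 1.07 (SE) turned to 0.88 without control 2. BCL2L2, which encodes BCL-W, had 5.47 and 2.91 in the knockouts, against 23.5 and 4.74 in the controls. Control 1 alone was high, and the log2 fold change of −1.31 was −0.22 without it. BCL2 itself was barely read, with 0 and 3 reads in the knockouts against 0 and 7 in the controls. BCL2A1 was listed at 0 in all 4 libraries.

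Set beside each other, the guardians made up a different mixture in each library. MCL1 supplied 86.1% and 72.3% of the summed FPKM of the 5 genes in the knockouts, against 47.8% and 31.9% in the controls. BCL2L1 supplied 11.7% and 25.4% in the knockouts, against 22.3% and 64.7% in the controls. The ratio of MCL1 to BCL2L1, both per kilobase, was therefore 7.36 and 2.85 in the knockouts, against 2.14 and 0.492 in the controls. Knockout 2 and control 1 were closer to each other in that ratio than either was to its own replicate. These shares describe RNA and were not tested.

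**Figure D2:**
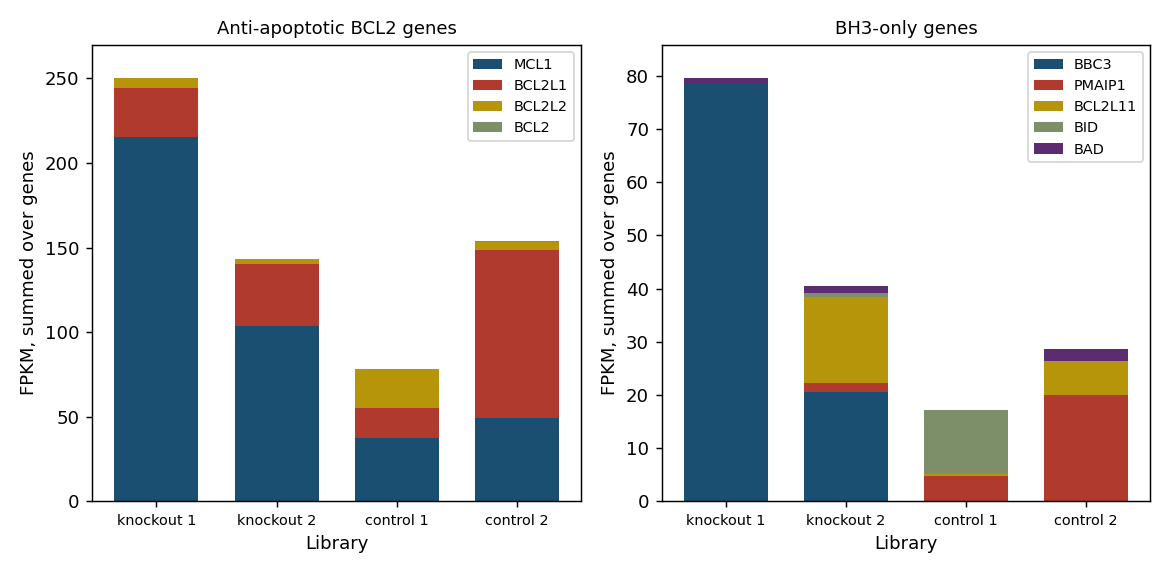
FPKM summed over the anti-apoptotic BCL2 genes (left) and the BH3-only genes (right), 1 bar per library, with each colour a gene; genes at 0 in all 4 libraries are left out. MCL1 fills most of both knockout bars on the left, and BBC3 appears in both knockout bars and in neither control bar on the right.

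The effectors were both expressed. BAX had FPKM of 56.2 and 47.5 in the knockouts, against 85.8 and 27.2 in the controls. Its groups overlapped fully, and the log2 fold change of 0.09 (95% interval −1.77 to 1.96) turned to −0.73 without control 2 and to −0.03 without knockout 1. BAK1, whose product sits on mitochondria and is held by MCL1 and BCL-XL, had 42.3 and 4.01 in the knockouts, against 0.627 and 2.90 in the controls. Knockout 1 carried that difference: it had 76 reads and knockout 2 had 11, against 3 and 12 in the controls. The log2 fold change was 2.83 ± 2.41 (SE), or 1.20 without knockout 1 and 4.45 without knockout 2 (adjusted p = 0.955 in limma).

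BH3-only genes gave the widest contrasts in both directions. BBC3 encodes PUMA, which binds all the guardians and is a textbook p53 target. It was listed at 78.4 and 20.6 FPKM in knockout 1 and 2 and at 0 in both controls. The knockout values stand for 117 and 47 reads, and the deeper control libraries had none. With the controls put at 3 reads over the group, BBC3 was at least 107-fold higher in the knockout per read sequenced (counting error only). That limit depends on single libraries: it was 50.9-fold without knockout 1, 194-fold without knockout 2, 49.8-fold without control 1 and 57.6-fold without control 2. The fitted log2 fold change of 6.35 ± 2.53 (SE), which depends on the pseudocount, had an unadjusted p of 0.0121 and an adjusted p of 0.955 in limma. Leaving out knockout 1 gave 5.40 and leaving out knockout 2 gave 7.30, and the lowest adjusted p with 1 library left out was 0.218. Being at 0 in both controls and above 0 in both knockouts was shared by 133 tested genes, or 1.16%. BBC3 (ENSG00000105327) occupies chr19:47220822-47232766 of hg38, minus strand, and 2.39% of its exon bases are shared with MIR3191.

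PMAIP1 encodes NOXA, which pairs mainly with MCL1, and it pointed the other way. It had FPKM of 0 and 1.66 in the knockouts, against 4.75 and 20.03 in the controls. Both controls were above both knockouts, which held 0 and 4 reads against 20 and 73. Scaled for depth, the ratio of reads was 0.0845 (exact 95% interval 0.0226 to 0.224, counting error only). It was 0.140 without knockout 1, 0.04996 without control 1 and 0.211 without control 2, and without knockout 2, with no read left, at most 0.160 (3 reads). A count of 0 in knockout 1 allows up to 1.90 FPKM there (3 reads). The log2 fold change was −3.32 ± 2.74 (SE) and lay between −4.38 and −2.27 with 1 library left out (adjusted p = 0.955 in limma). PMAIP1 (ENSG00000141682) occupies chr18:59899948-59904306 of hg38, plus strand.

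The 250 bases before the RefSeq start of BBC3, PMAIP1 and BAK1 are shown because these 3 pro-apoptotic genes separated the groups, in opposite directions. Capitals mark matches on either strand to the GC box GGGCGG, the CCAAT box, TATAAA, the CRE half-site TGACG, the kappa B consensus and the p53 half-site. Sequences are from RefSeq (GRCh38.p14), written 5′ to 3′ on the strand of the gene.
BBC3, chr19:47232668-47232917, minus strand: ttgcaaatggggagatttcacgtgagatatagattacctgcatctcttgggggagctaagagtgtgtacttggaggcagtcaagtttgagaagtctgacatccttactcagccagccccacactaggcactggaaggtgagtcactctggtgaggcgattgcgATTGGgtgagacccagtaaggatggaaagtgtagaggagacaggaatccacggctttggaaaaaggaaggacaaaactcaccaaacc
PMAIP1, chr18:59899746-59899995, plus strand: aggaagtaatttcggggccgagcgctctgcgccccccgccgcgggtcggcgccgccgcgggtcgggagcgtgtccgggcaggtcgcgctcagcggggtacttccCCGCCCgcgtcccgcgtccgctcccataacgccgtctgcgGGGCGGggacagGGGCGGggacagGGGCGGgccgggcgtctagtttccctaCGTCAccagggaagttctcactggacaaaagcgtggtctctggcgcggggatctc
BAK1, chr6:33580277-33580526, minus strand: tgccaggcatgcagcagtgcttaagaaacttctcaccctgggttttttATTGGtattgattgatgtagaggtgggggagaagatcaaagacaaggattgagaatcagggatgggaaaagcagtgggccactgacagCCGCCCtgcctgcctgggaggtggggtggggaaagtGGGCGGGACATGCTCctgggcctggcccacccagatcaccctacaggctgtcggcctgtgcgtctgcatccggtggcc
The 3 windows have little in common. The BBC3 window is 49.2% G and C and holds 1 match, a CCAAT box that begins 87 bases before the start. The PMAIP1 window is 72.8% G and C and holds 4 GC boxes and 1 TGACG. The BAK1 window is 58.0% G and C and holds 2 GC boxes, 1 CCAAT box and 1 p53 half-site, which overlaps a GC box by its first base.

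Of the 32 genes, 25 matched the RefSeq table, and where it lists several starts the first was taken, as for all 27305 genes used. A GC box was in 18 of the 25 windows, against 42.3% of all windows, and TGACG was in 10 of 25, against 21.7%. CCAAT boxes were in 8 of 25 (33.0% of all), TATAAA in 2 (11.1%) and p53 half-sites in 1 (5.53%). The kappa B consensus was in 3 of the 25, those of BMF, BIRC3 and CFLAR, against 5.05% of all. BIRC3 and CFLAR are textbook NF-kB targets, and BMF was listed at 0 in all 4 libraries. The part of NF-kB in the values of these genes was not tested. The 25 windows had a median of 66.4% G and C, against 58.0% over all, and a GC box is made of those bases. The part of base composition in the count of GC boxes was not tested. A match is a description of letters and not a bound site.

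The remaining BH3-only genes were low or uneven. BCL2L11, which encodes BIM, a BH3-only protein that binds every guardian, had FPKM of 0 and 16.2 in the knockouts, against 0.442 and 6.34 in the controls. The replicates of each group stood further apart than the groups, and the log2 fold change of 0.19 was 2.72 without knockout 1, −2.34 without knockout 2 and −1.24 without control 1. BID, which caspase 8 cleaves to link the extrinsic to the intrinsic route, had 0 and 0.646 in the knockouts, against 12.05 and 0 in the controls. Control 1 alone held more than 2 reads of it. BAD, which survival kinases switch off by phosphorylation, had 1 and 2 reads in the knockouts against 0 and 5 in the controls, and its log2 fold change of 0.54 turned to −0.71 without control 1. BIK, BMF and HRK were listed at 0 in all 4 libraries. Summed over the 8 BH3-only genes, FPKM was 79.5 and 40.5 in the knockouts, against 17.2 and 28.7 in the controls, with BBC3 making up most of the first value.

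Among caspases, no gene separated the groups. CASP2, which the PIDDosome activates, had FPKM of 17.5 and 11.04 in the knockouts, against 2.81 and 11.1 in the controls. Control 1 was low and the other 3 libraries were alike, so the log2 fold change of 1.22 was 0.31 without control 1. CASP8, the initiator of the extrinsic route, had 31.1 and 3.30 in the knockouts, against 27.3 and 20.2 in the controls. Knockout 2 was the low library, and without it the log2 fold change of −1.13 turned to 0.40. CASP9, the initiator of the intrinsic route, had 0 and 2.71 in the knockouts, against 0 and 14.4 in the controls, a log2 fold change of −1.11 that was 0.24 without knockout 1. CASP6, an executioner that cleaves lamins, was listed at 0 in knockout 1 and at 21.4 in knockout 2 (41 reads), against 0 in both controls. CASP10, a relative of CASP8, was listed at 0 in all 4 libraries.

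CASP10 lies beside 2 expressed members. CASP8, CASP10 and CFLAR sit within 100000 bases of each other on chromosome 2, and CASP8 and CFLAR had reads in every library. BIRC2 and BIRC3 likewise adjoin on chromosome 11, and both were read in every library.

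The apoptosome and the antagonists of the inhibitor proteins were seldom read evenly. APAF1 had FPKM of 0 and 10.9 in the knockouts, against 0.262 and 5.38 in the controls. Its log2 fold change of 0.17 turned to −2.08 without knockout 2 and to −1.30 without control 1. HTRA2, a mitochondrial protease, had 11.4 and 0 in the knockouts, against 9.76 and 30.4 in the controls. Knockout 1 lay between the controls, and the log2 fold change of −2.87 ± 2.20 (SE) was −0.58 without knockout 2. DIABLO, also called SMAC, was listed at 1.26 FPKM in knockout 2 and at 0 in the other 3 libraries, and it was not tested.

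Death receptor genes ranged from well read to listed at 0. TNFRSF10B, the TRAIL receptor DR5, had the narrowest range of the 24 tested genes as a ratio of highest to lowest: FPKM was 38.3 and 53.9 in the knockouts, against 45.3 and 47.1 in the controls. The controls lay between the knockouts, and the log2 fold change was −0.02, with a 95% interval from −1.95 to 1.91. Its sign was positive without control 2 (0.005) and without knockout 1 (0.22). TNFRSF10A, the TRAIL receptor DR4, had 0 and 14.3 in the knockouts, against 11.4 and 4.92 in the controls. Knockout 1 was the low library, and without it the log2 fold change of −1.57 was 0.88. FAS, the receptor of FAS ligand, was listed at 0 in all 4 libraries, which allows up to 1.44 and 0.944 FPKM in the knockouts and up to 0.541 and 0.626 in the controls (3 reads each).

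Both adaptors were low in replicate 1 of each group and high in replicate 2. FADD, which ties receptors to caspase 8, had FPKM of 0 and 30.2 in the knockouts, against 0.251 and 9.58 in the controls. TRADD, the adaptor of TNF receptor 1, had 0.656 and 9.45 in the knockouts, against 0.246 and 16.5 in the controls. Knockout 1 and control 1 held at most 1 read of either gene. The log2 fold change of FADD was 0.51, or −2.46 without knockout 2 and −1.36 without control 1, and that of TRADD was −0.07, or 1.48 without knockout 1 and 2.18 without control 2.

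Inhibitor of apoptosis genes and CFLAR were read in all 4 libraries. CFLAR had FPKM of 18.5 and 22.4 in the knockouts, against 12.2 and 13.1 in the controls. The groups did not overlap, and the replicates of each group were close. As means, these were 20.4 ± 2.79 in the knockout and 12.7 ± 0.600 in the control (SD, n = 2 each). The log2 fold change was 0.67 ± 1.49 (SE), between 0.53 and 0.80 with 1 library left out, and its adjusted p was 0.981 in limma. That SE is taken from genes of like level and not from the replicates of CFLAR. With 220 and 408 reads in the knockouts against 388 and 359 in the controls, the ratio of reads scaled for depth was 1.65 (exact 95% interval 1.48 to 1.84, counting error only).

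BIRC3, which encodes cIAP2, had FPKM of 16.1 and 20.3 in the knockouts, against 15.0 and 10.1 in the controls. The groups did not overlap, by a margin of about 1 FPKM, and the log2 fold change was 0.54 ± 1.53 (SE; adjusted p = 0.991 in limma). BIRC2, which encodes cIAP1, had 41.1 and 9.90 in the knockouts, against 16.9 and 34.8 in the controls. Both controls lay between the knockouts, and the log2 fold change of −0.25 turned to 0.75 without knockout 2 and to 0.26 without control 2. XIAP, which blocks caspases directly, had 0.717 and 4.69 in the knockouts, against 19.4 and 3.92 in the controls. Control 1 alone was high, and the log2 fold change of −1.90 was −0.81 without it.

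**Figure D3:**
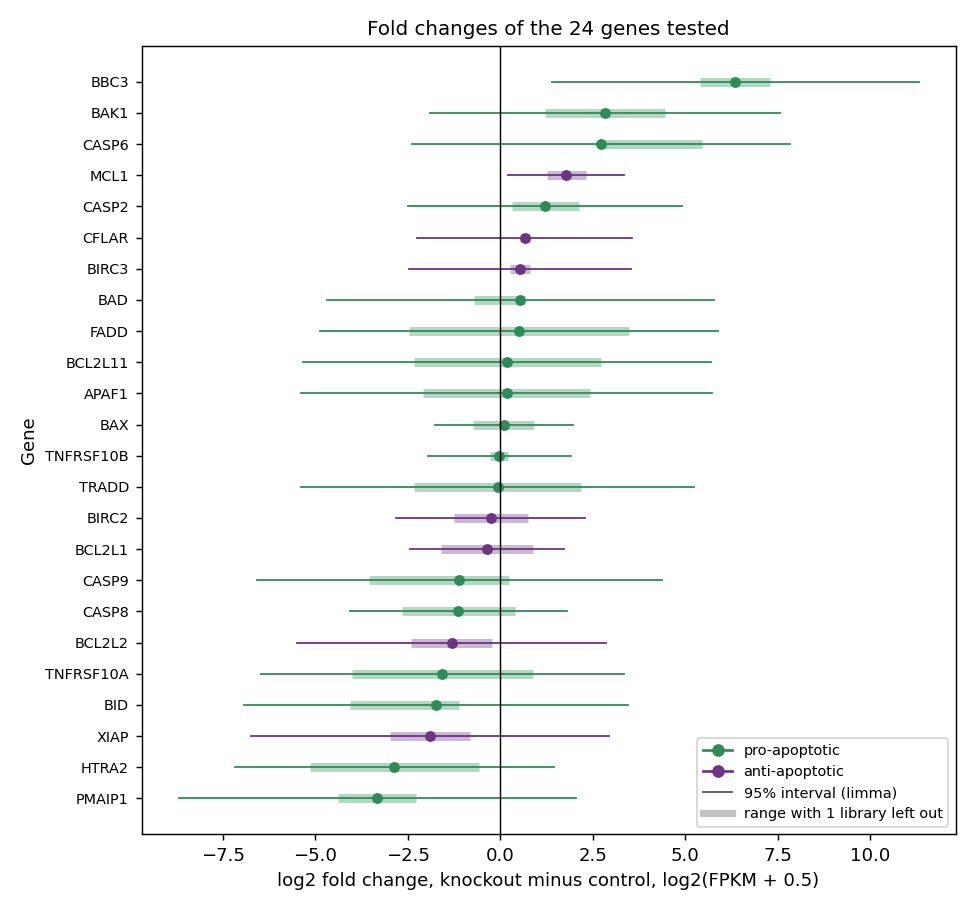
Fitted log2 fold change (knockout minus control) of the 24 tested genes, with its 95% interval as a thin line and its range with 1 library left out as a thick band, for pro-apoptotic genes (green) and anti-apoptotic genes (purple). The intervals of BBC3 and MCL1 lie above 0 before adjustment, and the bands of 12 genes cross 0.

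Replicates of a group often stood far apart. Over the 24 tested genes, the median gap between the 2 libraries of a group was 2.05 in the knockout and 1.73 in the control on the log2(FPKM + 0.5) scale, while the median size of the fold change was 1.12. Over all tested genes these medians were 1.89, 1.60 and 1.38. A gap is between single libraries and a fold change between means of 2, so these sizes are not directly comparable. The fold change was larger than both replicate gaps for 4 of the 24 (BBC3, PMAIP1, MCL1 and CFLAR), against 15.4% of all tested genes. Across the 24 genes, Pearson's r was 0.37 between the knockouts, 0.51 between the controls, and 0.17 to 0.51 between libraries of different groups, as a description over genes that share each library's depth.

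**Figure D4:**
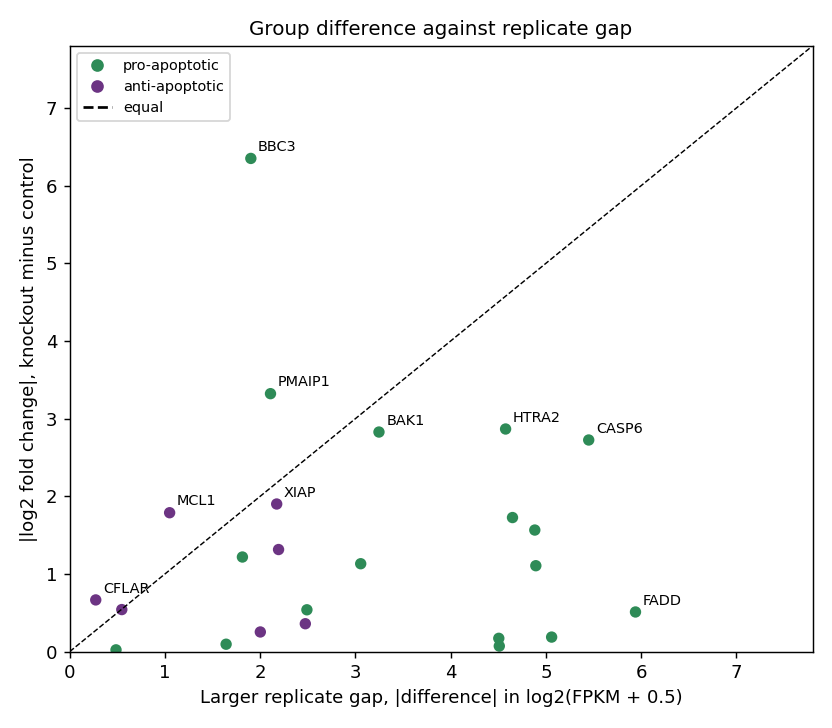
Size of the group difference (vertical) against the larger of the gaps between replicates (horizontal) for the 24 tested genes, both in log2(FPKM + 0.5). Points above the dashed line are BBC3, PMAIP1, MCL1 and CFLAR, or 16.7% of the 24, close to the 15.4% of all tested genes. A fold change is between means of 2 and a gap between single libraries, so the axes are not directly comparable.

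Listed zeros among tested members were all in pro-apoptotic genes. The filter on level had left out the anti-apoptotic genes with zeros, BCL2 (at 0 in 2 libraries) and BCL2A1 (at 0 in all 4). Of the 17 pro-apoptotic genes tested, 11 were at 0 in at least 1 library, against 0 of the 7 anti-apoptotic genes and 49.4% of all tested genes. The pro-apoptotic genes were also lower, with a median level of 7.65 FPKM against 16.6 for the anti-apoptotic genes, and the part of level in those zeros was not tested. By library, 33.3% and 4.17% of the 24 genes were at 0 in knockout 1 and 2, against 16.7% and 12.5% in control 1 and 2. The shares for all tested genes were 34.7% and 13.9% in the knockouts, against 28.3% and 12.3% in the controls. In both groups, replicate 2 stood above replicate 1 for 10 of the 24 (31.2% of all tested genes), and replicate 1 above replicate 2 for 3 (12.3%).

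Summed over roles, the anti-apoptotic genes had FPKM of 326 and 201 in the knockouts, against 142 and 216 in the controls. The pro-apoptotic genes had 277 and 250 in the knockouts, against 201 and 218 in the controls. The sum of anti-apoptotic over pro-apoptotic FPKM was 1.18 and 0.802 in the knockouts, against 0.707 and 0.989 in the controls, so that both controls and knockout 2 lay below 1 and the groups overlapped.

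Other genes of apoptosis gave the same count of calls. Of 38 listed, 29 were tested, 18 higher and 11 lower (median 0.27). Among the 29, limma called 0, against 0.0872% of all tested genes. At an unadjusted p under 0.05 stood 2 (BAG5 and VDAC1, the last named after its value was seen), against 3.91% of all tested genes. Groups did not overlap for 24.1% of the 29, 4 higher and 3 lower, close to the 26.5% of all tested genes. BAG5 and BIRC5 were among those with the largest fold changes whose groups did not overlap. BAG5, a co-chaperone, had FPKM of 0 and 7.12 in the knockouts, against 39.2 and 26.9 in the controls (log2 fold change −4.08 ± 2.03, SE). BIRC5, which encodes survivin, had 43.2 and 45.8 in the knockouts, against 3.41 and 25.6 in the controls (2.15 ± 1.34, SE).

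BBC3 and PMAIP1 are both p53 targets and stood on opposite sides. Of 19 further p53 targets listed, 13 were tested, 8 higher and 5 lower (median 0.97). Among the 13, limma called 0, against 0.0872% of all tested genes. At an unadjusted p under 0.05 stood 1 of the 13, against 3.91% of all tested genes. CDKN1A, which encodes the cell cycle inhibitor p21, was the 1 tested gene of that list whose groups did not overlap. That is 7.69% of the 13, against 26.5% of all tested genes. It had FPKM of 90.7 and 42.3 in the knockouts, against 4.90 and 17.2 in the controls, a log2 fold change of 2.68 ± 1.26 (SE; adjusted p = 0.955 in limma).

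Several members share exon bases with another gene, and whether reads were counted by strand is not given. FADD shares 54.9% of its exon bases with an opposite-strand gene, BCL2L1 43.0% with ABALON, HTRA2 36.9% with AUP1 and LOXL3, and BCL2L2 19.4% with the readthrough gene BCL2L2-PABPN1 on its own strand. DIABLO shares 29.6% with genes on its own strand and 14.3% with B3GNT4 on the opposite strand. BAD shares 23.65% with GPR137, and TNFRSF10A 16.6% with opposite-strand genes. How many reads of these genes fall in the shared bases was not measured, so their values are uncertain. MCL1, PMAIP1 and BIRC3 share under 1% of theirs, and CFLAR shares 10.05% with opposite-strand genes.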

How the data were processed

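An FPKM value for each Ensembl gene was deposited by the authors in 1 table per library; HTSeq is named in the file titles and hg38 in the submitters' processing notes. Aligner, annotation release and strand setting: not given in the sources used here. Symbols, lengths and positions came from GENCODE 29 (58039 of 58302 IDs matched). Whole reads, on which precision rests, were recovered from FPKM and longest transcript; 96.4 to 96.5% of values above 0 came out whole (tolerance 0.0001), but those of DIABLO did not.

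Genes averaging 1 FPKM or more entered limma 3.58.1 (R 4.3.3; lmFit, then eBayes with a trend) on log2(FPKM + 0.5), a scale that understates changes of low genes. P-values are two-sided and Benjamini-Hochberg adjusted over all tested genes, with a threshold of 0.05. Prior degrees of freedom were infinite, so each SE comes from the trend with level. Read ratios carry exact binomial 95% intervals, which, like floors of 3 reads, cover counting error only, since amplified copies are not separate molecules. Alternatives changed the pseudocount, filter, scaling, model or libraries. Members and lists were chosen with earlier results of these data known. Beyond the members, the rule named IGF2BP3 and, of each further list, up to 3 genes of largest fold change whose groups did not overlap; 1 gene so named is not reported here.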

Additional observations from a re-analysis of the deposited data

How the results depend on the processing

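No apoptosis gene passed under any of the 9 alternatives that kept all libraries (lowest adjusted p 0.227, BBC3 in limma-voom on recovered reads) or with a library left out (lowest 0.218). The count of 10 over all genes was 7 to 14 in 8 of those 9 and 0 under eBayes without trend in limma (415 at an unadjusted p under 0.05). It was 0 to 0 with 1 library left out, where the lone library of a group is assumed to vary like the others. Replicate numbers pair nothing in the labels, and same-numbered deviations correlated at −0.00401. With the replicate block, 14 genes passed and 0 members.

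With all libraries kept, 5 members changed direction in some alternative. At a pseudocount of 0.1, BCL2L11 came to −0.55, APAF1 to −0.43, FADD to −0.083 and TRADD to 0.16. In limma-voom, BCL2L11 came to −0.15, APAF1 to −0.18, TNFRSF10B to 0.036 and TRADD to 0.40. With 1 library left out, 12 members kept their direction. The others ranged from −1.60 to 0.88 (BCL2L1), −0.73 to 0.92 (BAX), −0.71 to 0.68 (BAD), −2.34 to 2.72 (BCL2L11), −2.66 to 0.40 (CASP8), −3.55 to 0.24 (CASP9), −2.08 to 2.42 (APAF1), −4.01 to 0.88 (TNFRSF10A), −0.27 to 0.22 (TNFRSF10B), −2.46 to 3.48 (FADD), −2.33 to 2.18 (TRADD) and −1.25 to 0.75 (BIRC2). The cause was not tested. BID, BAD, CASP6 and CASP9 missed the level filter in 1 of these fits each. Ratios of reads with a library left out were added after seeing the data. BCL2, BAD and DIABLO had under 10 reads in every library, and the part of depth in that was not tested.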
